A study of Mus musculus with 15 samples.

Results

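The genes described here are those whose RNA level could be compared among 7 mouse bone marrows with acute myeloid leukaemia (AML), and the question is which of them differed most, which differed together and which stayed nearly constant from one leukaemic marrow to the next. Members were autosomal protein-coding genes that averaged 100 normalized counts or more in the 7 AML libraries. They numbered 9886 of the 38315 genes in the table. A further 9797 autosomal protein-coding genes fell under the minimum, and the genes nearest to it had means of 100.03 inside and 99.95 outside. All 7 marrows came from transgenic mice of genotype NUP98NSD1/FLT3ITD, that is with the fusion NUP98-NSD1 and FLT3-ITD, were labelled as bone marrow tissue and were not sorted as far as the labels say. The other 8 of the 15 samples, used here only as a reference, were wild-type whole marrow (4 samples) and wild-type lineage-negative marrow (4 samples), the latter depleted of cells that carry antigens of mature blood lineages. The labels give no age, sex, leukaemic burden, clone or time of sampling for any mouse, and they do not name the promoter behind either alteration. No treatment is named for any group.

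AML is a cancer in which myeloid precursors accumulate in the marrow and mature only in part. NUP98-NSD1 joins a nuclear pore protein to a histone methyltransferase and is known for keeping Hoxa genes active, and FLT3-ITD is a repeat insertion that keeps the growth factor receptor FLT3 signalling. A leukaemic marrow also holds normal cells, such as red cell precursors, neutrophils, dendritic cells, lymphocytes and stroma. RNA from a whole marrow therefore mixes blasts and these other cells, and in such bulk samples fewer cells of a type and less RNA per cell cannot be told apart. The variance of a gene across marrows measures how much that mixture, or the state of its cells, differed from mouse to mouse.

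Markers of the labelled tissue were present in every AML library. The neutrophil granule enzyme gene Mpo ranged from 8584 to 56934 normalized counts, and Flt3 from 870 to 4484. The homeobox genes Hoxa9 and Meis1 ranged from 63.7 to 227 and from 156 to 400. Estimated depth was 20.3 to 35.1 M reads (M, mega), and the libraries differed in ways that touch the results. Replicates 5 and 6 had 29.1% and 23.6% of all genes at 0, against 38.2% to 41.4% in the other 5. In replicate 6 the olfactory and vomeronasal receptor genes, which marrow is not known to use, averaged 3.55 normalized counts; they averaged 1.23 in replicate 5 and 0.44 to 0.69 elsewhere. Mitochondrial transcripts made up 12.2% of replicate 3 and 2.01% of replicate 5, the extremes, and small structural RNAs classed as misc_RNA made up 30.2% of replicate 4 against 6.13% of replicate 7. Xist, expressed from the inactive X chromosome of females, was at 12308 to 24744 in 5 libraries, while the Y-linked gene Ddx3y was at 1581 in replicate 3 and 2126 in replicate 5 and at 0 in those 5. The part of these differences in the results below was not tested.

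Most genes differed little. The standard deviation (SD) of log2(value + 1) over the 7 libraries had a median of 0.27, with quartiles of 0.19 and 0.39. An SD of at least 1 was reached by 311 members (3.15% of them), and 38 reached 2. The highest library was at least 2-fold above the lowest for 3016 members (30.5%), and less than 1.5-fold above it for 2939. The upper decile, the 989 genes with the highest variance, began at an SD of 0.59 and held 62.2% of the summed variance. The lower decile, the 989 genes with the lowest, ended at an SD of 0.15. Counting error alone, from estimated reads, would give a median SD of 0.05. At or under their own counting SD were 24 members, 23 of them in the lower decile. Low level went with high variance only in part: of members below the lower quartile of mean level 19.2% were in the upper decile, and of those above the upper quartile 6.27%.

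**Figure D1:**
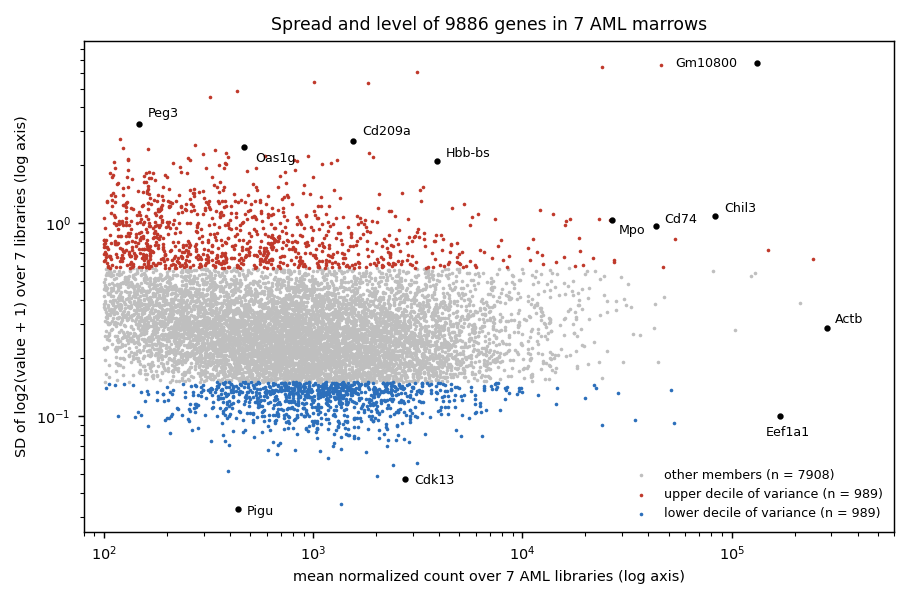
Each point is 1 of the 9886 members, with its mean normalized count over 7 AML libraries on a log axis and the SD of its log2 values on a log axis. The 989 genes of the upper decile (red) tend to lower means (median 385) than the 989 of the lower decile (blue, median 1097). Gm10800 has the highest SD, 6.78, and Pigu the lowest, 0.033.

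The 8 genes with the highest variance were predicted genes with no established function, Gm10800 and Gm10801 on chromosome 2 and Gm10718, Gm10719, Gm11168, Gm10717, Gm10722 and Gm17535 on chromosome 9. As predicted genes they fall outside the rule that named the other genes and were singled out after their values were seen. Their annotated transcripts match themselves at a shift. In 5 of the 8 the best self-match came at a shift of 234 bases, where 62.6% to 65.2% of bases were equal, against medians of 30.7% to 31.7% over all shifts from 20 to 300 bases. The other 3 matched best at other shifts, Gm10800 at 225 bases (56.3% equal), Gm10801 at 231 (52.7%) and Gm11168 at 237 (62.9%). The major satellite, the repeat of mouse pericentromeric heterochromatin, is known for a unit of 234 bases. Between 41.7% and 77.3% of a gene's 20-base words recurred in the closest other gene, so reads cannot be assigned to 1 of them with certainty. Gm10718 lies on chromosome 9 from 3023547 to 3025219 in the coordinates of the table, and its transcript is annotated without untranslated regions in GENCODE M21. Bases 66 to 299 and 300 to 533 of the transcript are shown because they are successive repeat units, with capitals for the 224 of 234 bases that are equal in both.
Gm10718 unit 1: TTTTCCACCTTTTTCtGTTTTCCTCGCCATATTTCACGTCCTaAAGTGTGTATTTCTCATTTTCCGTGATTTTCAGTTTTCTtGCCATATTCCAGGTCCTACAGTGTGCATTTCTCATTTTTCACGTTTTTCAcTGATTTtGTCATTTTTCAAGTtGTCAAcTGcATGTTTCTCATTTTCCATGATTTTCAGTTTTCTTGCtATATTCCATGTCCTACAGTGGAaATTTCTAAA
Gm10718 unit 2: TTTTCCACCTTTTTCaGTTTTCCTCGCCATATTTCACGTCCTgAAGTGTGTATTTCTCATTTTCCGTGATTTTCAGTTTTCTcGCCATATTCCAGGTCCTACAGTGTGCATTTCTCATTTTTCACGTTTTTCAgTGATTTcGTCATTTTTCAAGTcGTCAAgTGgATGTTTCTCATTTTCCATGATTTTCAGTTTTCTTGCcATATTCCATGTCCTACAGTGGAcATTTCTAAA

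In replicates 1 to 7, Gm10800 had 12.7, 22.5, 7.35, 176, 178974, 734918 and 7151 normalized counts. Replicates 5 and 6 were thus far above all others, and replicate 7 lay between. Gm10718 followed the same order at its upper end, with 1067 in replicate 7, 25590 in replicate 5 and 141337 in replicate 6, and at most 42.8 in the other 4. The 8 genes together took 4.66% of the counts of replicate 6, 1.16% of replicate 5 and 0.043% of replicate 7. In wild-type whole marrow the same genes took 3.44% to 7.53%, and in lineage-negative marrow at most 0.023%. These are also the libraries in which fewest genes were at 0 (whole marrow 7.12% to 15.7%) and olfactory receptors were highest (whole marrow means 6.69 to 12.6); whether the reads come from RNA or from residual DNA was not tested, so the values of these genes may not be RNA levels. The 8 genes held 13.3% of the variance summed over all members.

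By overall profile, replicates 6 and 3 stood farthest from the mean of the 7, at Euclidean distances of 61.2 and 56.8 on the log2 scale, against 33.0 to 43.9 for the others. Along the first principal component (35.4% of variance) the scores went from −37.8 for replicate 3 to 47.9 for replicate 6. The second (23.8%) set both of them, at 33.5 and 29.4, against the other 5 libraries, which lay between −20.6 and −5.14. On the third, with 14.6%, replicate 1 stood at 35.1 and no other library above 7.73. These distances and scores include the 8 predicted genes above, highest in replicate 6, whose values may not be RNA levels. They held 13.3% of the summed variance. Of the 300 most variable genes, 111 were highest in replicate 3 and 85 in replicate 6, and 81 were lowest in replicate 6, 67 in replicate 1 and 54 in replicate 3. Replicates 2 and 4 were nearest to each other, with r = 0.97 across genes and a distance of 41.2, so no pair of libraries was a copy. With replicates 3 and 6 both left out, a choice made after the data had been seen, 119 members had an SD of at least 1 in place of 311.

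**Figure D2:**
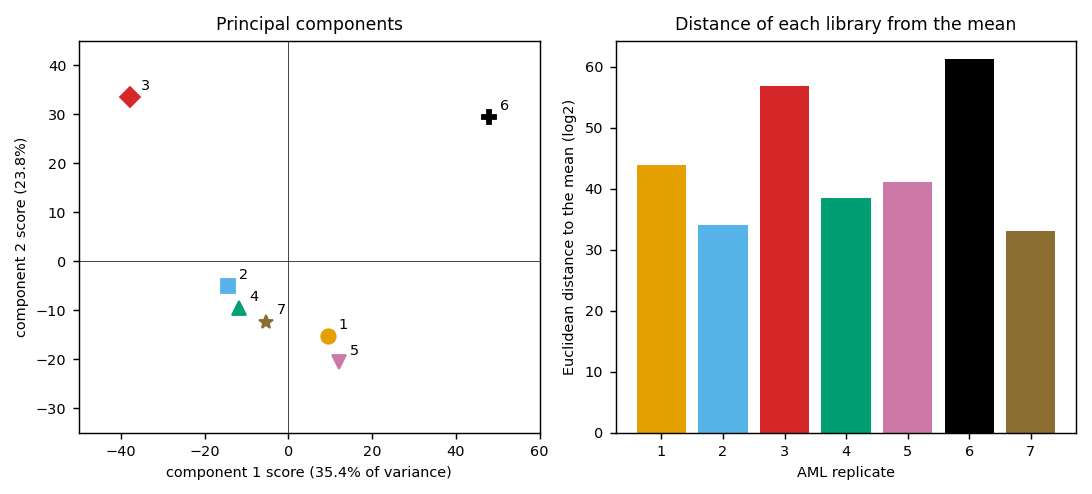
Left, scores of the 7 AML libraries (numbers are replicates) on the first principal component (35.4% of variance) and the second (23.8%) of centred log2 values of all members; right, each library's Euclidean distance to the mean of the 7. Replicates 3 and 6 lie at opposite ends of the first component and have the largest distances, 56.8 and 61.2.

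Lists of maturing and immune cell genes had high percentiles of variance, and lists of housekeeping complexes low ones. A percentile of 100 is the most variable member. Median percentiles were 99.8 for 7 erythroid genes, 99.1 for 12 B cell genes, 98.0 for 5 mast cell and basophil genes, 97.1 for 18 T and NK cell genes and 96.9 for 21 MHC class II and dendritic cell genes. At the other end they were 25.3 for 51 translation initiation genes, 26.1 for 44 splicing genes, 29.7 for 53 genes of mediator and RNA polymerase II, 35.8 for 82 oxidative phosphorylation genes and 37.0 for 46 proteasome genes. Set against the 10% that defines each decile, the upper decile took all 7 erythroid, all 12 B cell and all 18 T and NK cell members of the lists, and 0 of 51 translation initiation, 0 of 53 mediator and polymerase, 0 of 82 oxidative phosphorylation and 0 of 46 proteasome members. The lower decile took 12 of 51 translation initiation, 5 of 44 splicing, 11 of 53 mediator and polymerase, 12 of 82 oxidative phosphorylation and 4 of 46 proteasome members, the last a share below 10%. List genes made up 168 of the 989 genes of the upper decile, so most of it lies outside the lists. Listed genes under the mean minimum, such as 6 of 13 autosomal erythroid genes, are not part of these counts. Of the autosomal B cell genes 12 of 18 were members, and of the T and NK cell genes 18 of 24. A gene of low level can pass the minimum through 1 high library, which also gives it a high variance. Shares of such lists in the upper decile may thus come in part from the minimum, which was not tested. No test is attached to these counts, since the lists were chosen with results of these data known.

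**Figure D3:**
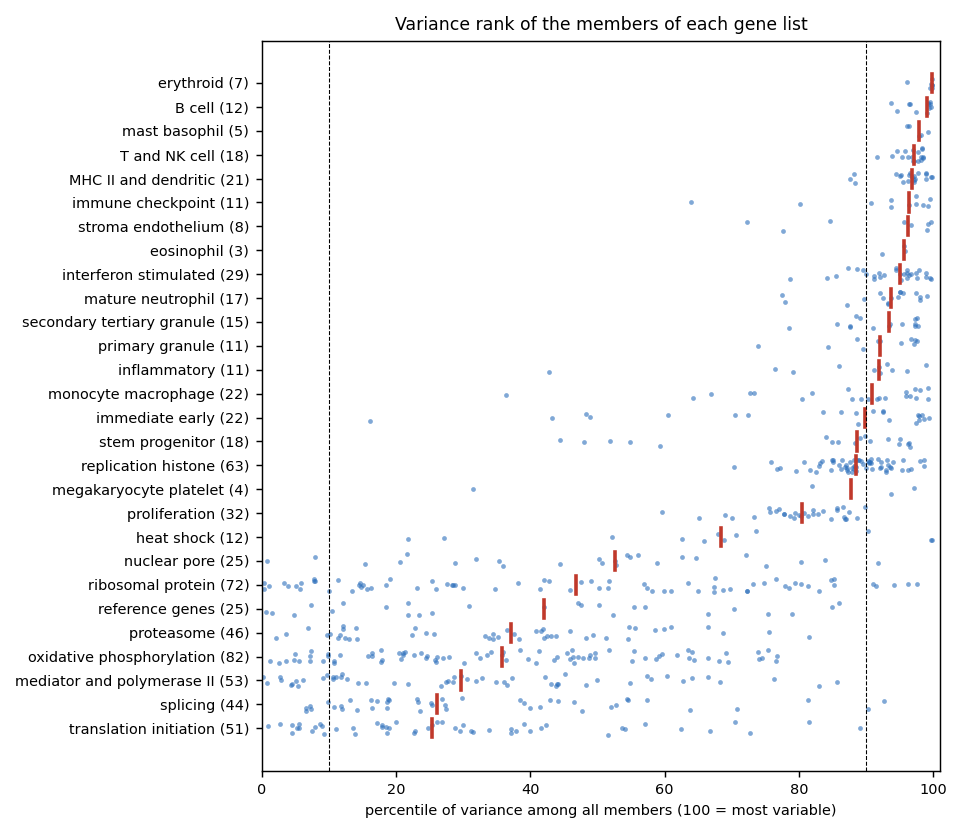
Each point is a member of a gene list (number of members in brackets) at its percentile of variance among all 9886 members, with the list's median as a red bar and dashed lines at the 10th and 90th percentile. Erythroid and lymphocyte lists sit at the right edge, with medians of 99.8 and 97.1 to 99.1, and lists of translation, splicing and transcription machinery have medians of 25.3 to 29.7.

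Red cell genes had the highest median percentile among the lists. Hba-a2, which encodes an alpha chain of adult haemoglobin, had 58.3, 349, 6349, 3449, 332, 636 and 1776 normalized counts in replicates 1 to 7. Replicates 3 and 4 were highest and replicate 1 lowest. Slc4a1, the anion exchanger of the red cell membrane, ranged from 14.0 in replicate 1 through a median of 257 to 2114 in replicate 3, a 151-fold range. The beta globin gene Hbb-bs ranged from 202 to 12691. All 7 erythroid members were lowest in replicate 1 (5.54% of all members) and highest in replicate 3 (11.99%). Their summed level ranged from 453 to 32015 normalized counts. In wild-type whole marrow that sum was 799117 to 1974700, above every AML library, and in lineage-negative marrow 16983 to 57059.

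**Figure D4:**
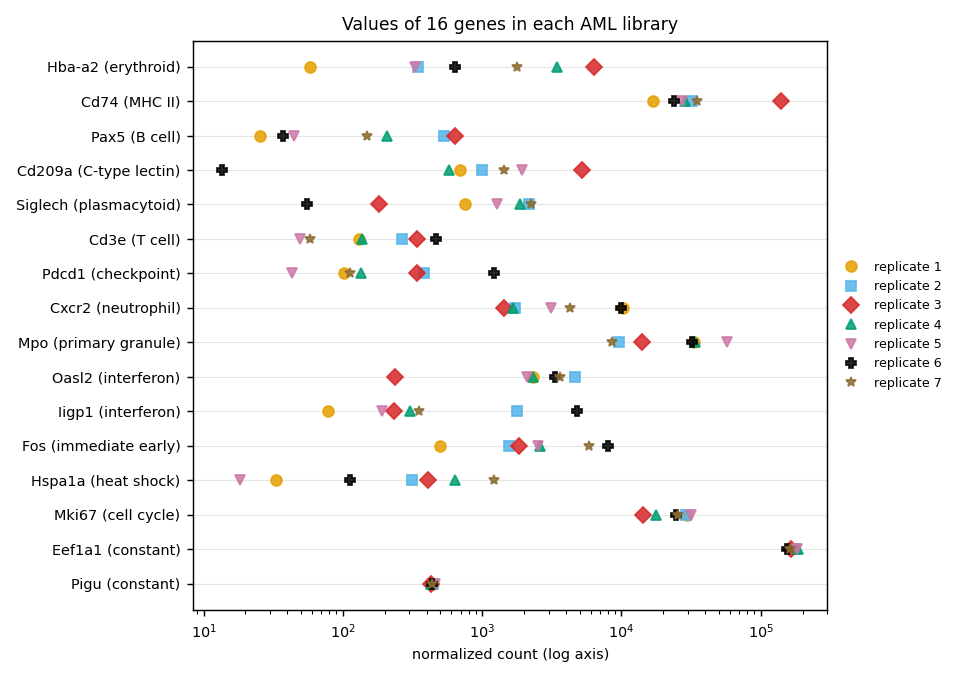
Normalized counts of 16 genes in each of the 7 AML libraries on a log axis, 1 marker shape per replicate. Hba-a2 spans 58.3 to 6349, replicate 6 is lowest for Cd209a (13.6) and Siglech (55.5) and highest for Pdcd1 (1225), and all 7 markers of Pigu overlap (427 to 456).

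The 300 most variable genes, with SD of at least 1.01, were grouped by average linkage of their correlation across the 7 libraries. Groups were joined down to a mean r of 0.7 between them. This gave 6 clusters of at least 10 genes, which held 224 of the 300. Single pairs within a cluster can lie under 0.7, with a lowest r of 0.08 in cluster 1. Since the clusters were made from the values they describe, nothing about them is tested. The profiles below are medians over a cluster's genes of log2 values centred on each gene's mean.

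**Figure D5:**
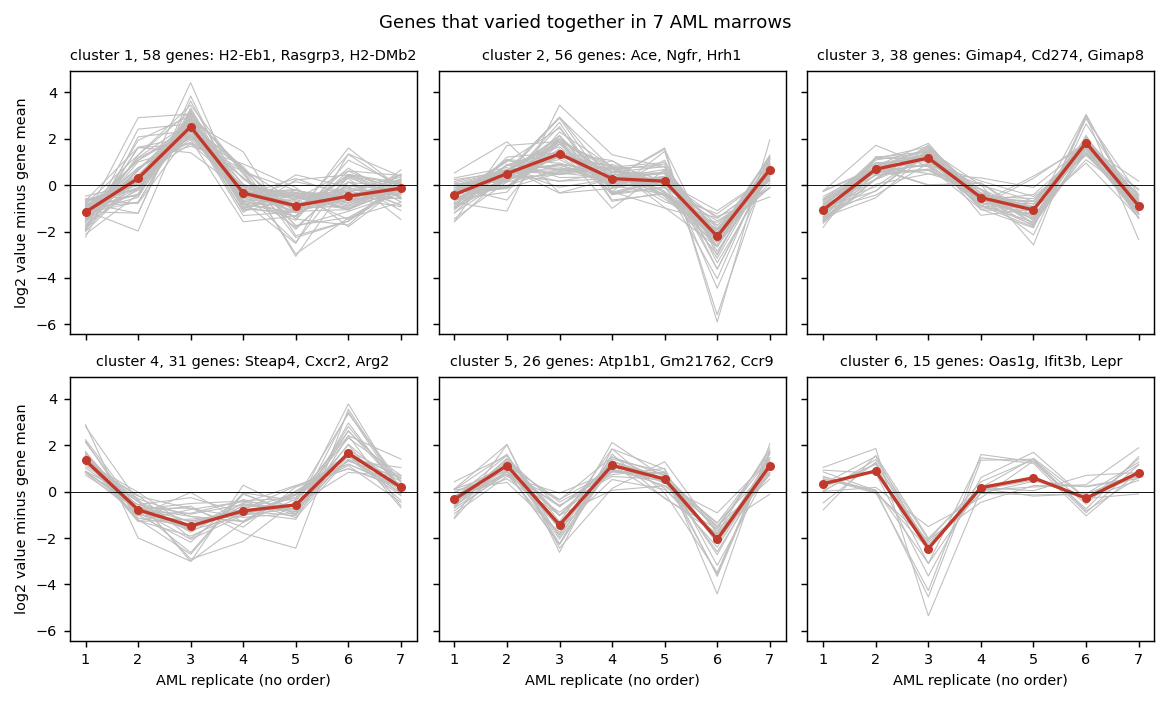
Log2 values of the genes of 6 clusters, each centred on its mean over the 7 AML libraries (grey, 1 line per gene; red, median), by replicate; lines join the values of a gene and imply no order. Cluster 1 is high in replicate 3 (median 2.52), cluster 2 low in replicate 6 (−2.21), cluster 3 high in replicate 6 (1.83), cluster 4 high in replicates 1 and 6 (1.35 and 1.65), cluster 5 low in replicates 3 and 6 (−1.43 and −2.05) and cluster 6 low in replicate 3 (−2.45).

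Cluster 1, the largest, of 58 genes with a median r of 0.83, was led by H2-Eb1, Rasgrp3, H2-DMb2, H2-Ab1 and Cd83. It was highest in replicate 3 for 57 of its 58 genes. MHC class II molecules present peptides to helper T cells and are made by dendritic cells, B cells and some monocytes. H2-Ab1, which encodes a class II beta chain, had 8368, 21149, 77894, 17004, 12111, 10953 and 15842 normalized counts in replicates 1 to 7, so that replicate 3 stood above all others and replicate 2 was next. Cd74, the invariant chain that guides class II molecules to the endosome, ranged from 16908 through 28810 to 139510, again highest in replicate 3. Ciita, the coactivator that class II transcription depends on, ranged from 1505 to 9598. Across the marrows Cd74 and Ciita had r = 0.97 and Cd74 and H2-Ab1 r = 0.98 (both adjusted p = 0.00496, exact permutation test).

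The same cluster held genes of distinct cell types. Xcr1, a chemokine receptor of cross-presenting dendritic cells, had 1230 normalized counts in replicate 3 and 64.9 to 172 in the other 6. Cd83, a surface protein of mature dendritic cells, ranged from 85.2 to 1874. The listed B cell genes here included Ms4a1, Cd79a, Cd22 and Pax5. The B cell transcription factor Pax5 had 529 and 638 in replicates 2 and 3, 207 in replicate 4 and at most 150 elsewhere. Il9r, a cytokine receptor subunit, and Fcmr, an IgM receptor, followed the B cell genes more than the class II genes, with 637 and 836 in replicate 2 and 745 and 930 in replicate 3. Over the whole list, 11 of 12 B cell members were highest in replicate 3 (11.99% of all members). The summed level of the list ranged from 4430 in replicate 6 to 21868 in replicate 3, against 7502 to 14036 in whole marrow.

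Cluster 2, of 56 genes with a median r of 0.85, was set apart by replicate 6, where 55 of the 56 were lowest, while 38 were highest in replicate 3. Its leading genes were Ace, Ngfr, Hrh1, Ust and Tubb2b. Cd209a, a C-type lectin of monocyte-derived dendritic cells, had 691, 999, 5215, 577, 1928, 13.6 and 1441 normalized counts in replicates 1 to 7, a 384-fold range. Its neighbour on chromosome 8, Cd209d, had 532 in replicate 3 and 1.23 in replicate 6. The angiotensin-converting enzyme gene Ace ranged from 38.3 in replicate 6 to 4940 in replicate 3. Wild-type marrow had 114 to 170 counts of Cd209a when whole and 34.4 to 62.6 when lineage-negative, so all AML libraries except replicate 6 exceeded both. Ngfr, the low-affinity nerve growth factor receptor, had 27.1 in replicate 6 and 132 to 355 elsewhere. The chemokine receptor gene Cx3cr1, of patrolling monocytes, had 247 in replicate 6 and 2382 to 5436 in the other 6, and the scavenger receptor gene Cd163 had 45.7 against 207 to 480. Upk1b, a uroplakin gene, was at 0 in replicate 6, under the floor of 3 reads (3.70 normalized counts), and at 46.6 to 231 in the others.

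Replicate 6 was not low in monocyte genes as a whole. Of 22 monocyte and macrophage members, 12 were in the upper decile of variance, and no library was highest for more than 6 of them. Csf1r, the receptor of macrophage colony-stimulating factor, had 4703 in replicate 6 and 10391 to 13926 in the others. Adgre1, the F4/80 antigen, was instead 1862 in replicate 6, within the 1200 to 2542 of the other libraries. Complement gene C1qa was highest in replicate 6, at 1213 against 114 to 541.

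Cluster 3, of 38 genes with a median r of 0.89, held 6 listed T and NK cell genes and the macrophage complement genes C1qa and C1qb, and was highest in replicate 6 for 33 of them and in replicate 3 for the other 5. Gimap4, Cd274, Gimap8, Tnfrsf4 and Cd247 led it. Cd3e, a signalling chain of the T cell receptor complex, had 131, 268, 341, 138, 49.1, 464 and 58.2 normalized counts in replicates 1 to 7. Replicates 6, 3 and 2 were above the other 4. The cluster also held 4 of the listed immune checkpoint genes, whose products restrain T cells. Pdcd1, which encodes PD-1, had 1225 in replicate 6, then 380 and 342 in replicates 2 and 3, with 43.4 to 135 elsewhere. Its ligand gene Cd274, which encodes PD-L1, ranged from 114 to 797 in a like order, and Tigit from 8.49 to 466. Ctla4 was instead highest in replicate 3, at 290 against 241 in replicate 6. Checkpoint genes as a list were not highest in replicate 6. Of the 11 checkpoint members, 6 were highest in replicate 3 (11.99% of all members). The summed level of the list ranged from 15216 in replicate 4 to 25468 in replicate 1. All 18 T and NK cell members were in the upper decile, and their summed level ranged from 2804 in replicate 7 to 10591 in replicate 3, against 1572 to 3059 in whole marrow. Cd3e and the T cell kinase gene Lck had r = 0.95 (adjusted p = 0.00496, exact permutation test), and r = 0.98 without replicates 5 and 6.

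Cluster 4, of 31 genes with a median r of 0.87, held 4 listed secondary or tertiary granule genes and 4 listed mature neutrophil genes, and was highest in replicate 6 (19 genes) or replicate 1 (12 genes) and lowest in replicate 3 for 21. Steap4, Cxcr2, Arg2, Asprv1 and Upp1 led it. Cxcr2, the receptor by which neutrophils leave the marrow, had 10236, 1717, 1442, 1662, 3115, 9955 and 4291 normalized counts in replicates 1 to 7. Steap4, a metalloreductase gene, had 859 and 1192 in replicates 1 and 6 and 13.5 to 151 in the others. The interleukin-1 decoy receptor gene Il1r2 had 5411 in replicate 6 and 1266 in replicate 1, against 287 to 700.

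Granule genes of granulocyte maturation also varied. Of 11 primary granule members, which are expressed first, 7 were highest in replicate 6 (8.86% of all members) and 7 lowest in replicate 7 (9.60%). Mpo (56934) and Elane (11002) were instead highest in replicate 5, and Mpo was low in replicates 7 (8584) and 2 (9574). Of 15 secondary and tertiary granule members 12 were highest in replicate 1 (25.6% of all members). Ltf, the lactoferrin gene, had 231177 there, against 70989 in replicate 4. S100a8, an abundant calcium-binding protein of neutrophils, likewise ranged from 61277 in replicate 4 to 291953 in replicate 1. Replicate 6 was high on the log2 scale for the primary list (median deviation from each gene's median 0.67, against 0.39 in replicate 5) and for the secondary and tertiary list (0.80, against 1.25 in replicate 1). Mpo and Elane had r = 0.98 and S100a8 and S100a9 had r = 0.99 (both adjusted p = 0.00331, exact permutation test). The secondary granule genes Camp and Ltf had r = 0.71 (adjusted p = 0.122, exact permutation test) and Camp and Chil3 r = 0.63 (adjusted p = 0.234), so neither pair passed. The single pair tested across steps, Mpo and Camp, had r = 0.42 (adjusted p = 0.447, exact permutation test). Without replicate 4, Camp and Ltf passed, with r = 0.93 (adjusted p = 0.027, exact permutation test). The upper decile held 7 of 11 primary granule, 9 of 15 secondary and tertiary granule and 13 of 17 mature neutrophil members. In AML the summed level of the secondary and tertiary genes was 322861 to 981353, overlapping whole marrow (282104 to 660508) and far above lineage-negative marrow (4545 to 18037).

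Promoters of cluster 4 are shown because most of its genes, 26 of 31, had a promoter in the RefSeq table for GRCm38.p6, which covers 250 bases before to 50 after a start. The word TATAAA, in either orientation, occurred in 8 of the 26, against 8.49% of the 7987 members with a promoter, and the median number of CG dinucleotides was 4, against 21. Few CG were not particular to this cluster, since the medians of the other 5 were 4 to 12, although for 4 of them under 80% of genes had a promoter. For the upper decile as a whole such a comparison is void, since only 730 of its 989 genes had a promoter. The 100 bases before the start of Acod1, a gene of this cluster that encodes the itaconate-making enzyme, are set beside those of Pigu and Cdk13, from the constant end of the ranking. Acod1 was chosen because TATAAA lies there on the sense strand, so its presence was fixed in advance and need not be typical of the cluster. Capitals mark TATAAA and every CG, sense strand, 5′ to 3′, at chr14:103046912-103047011, chr2:155357425-155357524 and chr13:17805098-17805197.
Acod1: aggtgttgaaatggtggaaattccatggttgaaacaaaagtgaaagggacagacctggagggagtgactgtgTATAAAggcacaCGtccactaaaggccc
Pigu: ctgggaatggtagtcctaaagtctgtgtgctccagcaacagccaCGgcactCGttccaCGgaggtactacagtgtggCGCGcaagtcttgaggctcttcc
Cdk13: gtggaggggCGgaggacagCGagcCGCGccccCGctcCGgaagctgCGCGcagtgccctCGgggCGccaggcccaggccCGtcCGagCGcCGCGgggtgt
These stretches hold 1, 5 and 15 CG, and TATAAA is in the Acod1 stretch alone. Another constant gene, Adh5, had 0 CG in its stretch, so the words do not follow the ranking gene by gene.

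Cluster 5, of 26 genes with a median r of 0.90, was low in replicates 6 (lowest for 18) and 3 (lowest for 7). It was led by Atp1b1, Gm21762, Ccr9, Siglech and Fads2. Siglech, a lectin of plasmacytoid dendritic cells, the main makers of type I interferon, had 753, 2170, 181, 1883, 1279, 55.5 and 2224 normalized counts in replicates 1 to 7. The chemokine receptor gene Ccr9 of the same cells ranged from 56.7 in replicate 6 to 760 in replicate 4. Dntt, the terminal transferase of lymphoid precursors, ranged from 13.6 in replicate 6 to 416 in replicate 4. Siglech (181) and Ccr9 (146) were thus low in replicate 3, where class II genes and Xcr1 were highest. Both were named from a cluster low in that library, and plasmacytoid genes as a set were not examined.

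Cluster 6, of 15 genes with a median r of 0.82 and Oas1g, Ifit3b, Lepr, Siglec1 and Igfbp5 in the lead, was lowest in replicate 3 for all 15. Oas1g, which encodes an oligoadenylate synthetase, had 527, 927, 5.24, 265, 293, 313 and 947 normalized counts in replicates 1 to 7. Ifit3, an antiviral protein gene, ranged from 196 in replicate 3 through 922 to 2337 in replicate 2, and Oasl2 from 238 to 4642 in the same libraries. A group of 8 genes below the size described, named after its values were seen, was highest in replicate 6 for all 8 and held Iigp1, Gbp2, Gbp6 and Tgtp1, which encode GTPases known for induction by interferon gamma. Iigp1 had 4774 in replicate 6 and 1768 in replicate 2, with 78.9 to 355 elsewhere. Tgtp1 had 2419 in replicate 6 and 36.1 to 316 elsewhere. Of 29 interferon-stimulated members, 22 were in the upper decile (14 without replicate 3). Replicate 3 was lowest for 23 of them (24.7% of all members) and replicate 2 highest for 18 (8.89%). Ifit3 and Irf7, the transcription factor that amplifies interferon production, had r = 0.96 (adjusted p = 0.00496, exact permutation test). Ifit3 and Oasl2 had r = 0.84 (adjusted p = 0.0347, exact permutation test), but r = 0.14 without replicates 2 and 3, so that relation rests on those libraries.

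The interferon-stimulated response element is known as a pair of GAAA words set 2 bases apart, searched here as GAAA, any 2 bases and GAAA on both strands; where 3 words follow each other, matches overlap. It occurred in the promoters of 4 of the 13 genes of cluster 6 that had one (Oas1g, Ifit3b, Ifit1 and Ifit3), against 4.12% of all members with a promoter. In the replicate 6 group it occurred in 3 of 4 (Gm12185, Gbp2 and Tgtp1). Only those 4 of the group's 8 genes had a promoter, so a comparison with all members is void there. Stretches of 70 bases are shown to set both patterns side by side, with capitals for the word in either orientation. They lie on GRCm38.p6 at chr19:34583360-34583429 for Ifit3, chr19:34607756-34607825 for Ifit3b, chr19:34640764-34640833 for Ifit1, chr5:120887614-120887683 for Oas1g, chr11:48992284-48992353 for Tgtp1 and chr3:142620574-142620643 for Gbp2, each printed 5′ to 3′ on the strand of its gene.
Ifit3: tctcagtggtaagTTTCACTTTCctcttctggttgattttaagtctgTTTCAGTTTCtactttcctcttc
Ifit3b: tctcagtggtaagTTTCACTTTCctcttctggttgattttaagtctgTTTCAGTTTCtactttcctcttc
Ifit1: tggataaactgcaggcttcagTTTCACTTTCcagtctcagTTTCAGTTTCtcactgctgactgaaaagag
Oas1g: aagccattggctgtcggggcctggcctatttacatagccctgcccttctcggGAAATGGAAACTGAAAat
Tgtp1: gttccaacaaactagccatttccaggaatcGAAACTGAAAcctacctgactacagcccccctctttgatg
Gbp2: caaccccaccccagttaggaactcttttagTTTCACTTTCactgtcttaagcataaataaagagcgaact
The stretches of Ifit3 and Ifit3b are the same sequence, so their matches are not separate finds. Reads of these paralogs may have been split between them. A match is a run of letters and not a shown binding site.

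Cluster 6 also held genes of the marrow stroma. Lepr, which marks the stromal cells that keep blood stem cells in place, had 2.45 in replicate 3, under the floor of 3 reads (3.68 normalized counts), and 54.3 to 214 in the other 6. Cxcl12, the chemokine those cells make, ranged from 41.7 in replicate 3 to 1000.4 in replicate 4, and Igfbp5 from 11.03 to 701. Of the 8 stroma and endothelium members, 5 were in the upper decile. Their summed level was lowest in replicate 6, at 1877, and highest in replicate 5, at 4031.

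Of 18 blood stem cell and progenitor members, 7 were in the upper decile (4 without replicate 5), with a median percentile of 88.7. Replicate 5 was highest for 12 of the 18, against 22.6% of all members. Cd34, a sialomucin of progenitors, had 1199, 1142, 620, 2264, 3127, 477 and 1418 normalized counts in replicates 1 to 7. Flt3, the gene altered in FLT3-ITD, was lowest in replicate 6 (870) and highest in replicate 3 (4484), with 1958 to 3993 in the others. Kit, the stem cell factor receptor gene, had an SD of 0.60 and Spi1, which encodes the myeloid factor PU.1, an SD of 0.25. Hoxa7, Hoxa9 and Meis1, genes of the programme that NUP98 fusions are known for, had SDs of 0.49, 0.58 and 0.50. The 5 pairs tested here, Hoxa7 with Hoxa9, Hoxa9 with Meis1, Kit with Cd34 and Flt3 with Mpo and with Kit, did not pass, with r of −0.42 to 0.76 and adjusted p of 0.0829 or more (exact permutation test). Without replicate 6, Hoxa7 and Hoxa9 passed, with r = 0.97 (adjusted p = 0.0139, exact permutation test). Mast cell and basophil genes were high in replicates 5 and 6 and low in replicate 3. Prss34, a basophil protease gene, ranged from 72.3 in replicate 3 to 1856 in replicate 5, and Cpa3 and the transcription factor gene Gata2 had r = 0.87 (adjusted p = 0.0438, exact permutation test).

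Cell division genes were low in replicate 3. All 32 proliferation members were lowest in replicate 3 (24.7% of all members), and 20 were highest in replicate 5 (22.6%). In the upper decile were 0 of 32 (10% of all members). That count was 7 without replicate 6 and 0 to 2 without each other library. Mki67, the proliferation antigen gene, had 29654, 29088, 14290, 17809, 31469, 24448 and 25300 normalized counts in replicates 1 to 7. Top2a, a topoisomerase of dividing cells, had 6374 in replicate 3 and 11368 to 17948 elsewhere, with r = 0.95 to Mki67 (adjusted p = 0.00496, exact permutation test). The median deviation of the list from each gene's own median was −1.001 on the log2 scale in replicate 3, and −0.93 with TMM factors (trimmed mean of M values). Replication-dependent histone genes varied more, with 25 of 63 members in the upper decile and 32 of 63 lowest in replicate 3 (24.7% of all members). H4c8, a histone H4 gene, ranged from 10132 in replicate 7 to 33553 in replicate 1. These messages lack long poly(A) tails and occur in near-identical copies, so their counts per gene are uncertain.

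Immediate early genes are known to respond within minutes to handling or signals. Fos, a subunit of the AP-1 transcription factor, had 500, 1564, 1853, 2597, 2536, 7941 and 5895 normalized counts in replicates 1 to 7, high in replicates 6 and 7 and low in replicate 1. Fosb had 54.7 in replicate 1 and 2659 in replicate 7. The phosphatase gene Dusp1 followed Fos with r = 0.95 (adjusted p = 0.00496, exact permutation test), while Egr1 had r = 0.78 to Fos (adjusted p = 0.0698, exact permutation test), and r = 0.90 without replicate 5 (adjusted p = 0.0174). Hspa1a, an inducible heat shock protein gene, had 33.2, 315, 407, 636, 18.3, 113 and 1218, so replicate 7 was highest and replicates 5 and 1 lowest. Its near-identical neighbour Hspa1b had r = 0.98 to it (adjusted p = 0.00331, exact permutation test), but reads of this pair may be split by the counting. Constitutive chaperones differed less, with SDs of 0.38 for Hspa8 and 0.19 for Hsp90ab1. Of 22 immediate early members, 11 were in the upper decile, and of 12 heat shock members 3. The labels do not give the time from death to lysis, and its part was not tested.

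Peg3 was high in 1 library. This imprinted zinc finger gene, expressed from the paternal copy and known in stem cells and stroma, lies on chromosome 7 from 6706891 to 6733431 in the table. It had 1012 normalized counts in replicate 6 and 9.80 or less in the other 6, at least 299.8-fold above replicate 2, where it was at 0 (floor of 3 reads, 3.38 normalized counts). Whole marrow had 17.7 to 40.2 and lineage-negative marrow 0.88 to 7.83, so that replicate 6 stood above every other library of the series.

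At the constant end, all 20 genes named by the rule had an SD of 0.073 or less. Pigu, a subunit of the enzyme that attaches lipid anchors to proteins, had 444, 441, 429, 427, 456, 433 and 435 normalized counts in replicates 1 to 7. Its SD of 0.033 was under the 0.072 that counting error would give, as were those of Adh5 (0.035 against 0.041), Nol12 (0.052 against 0.077) and Mtif3 (0.071 against 0.076). These values depend on the scaling: with TMM factors the SD was 0.093 for Adh5, 0.10 for Nol12 and 0.13 for Mtif3, all above counting error, and 0.054 for Pigu, still under it. TMM moved the variance of 19 of the 20 by over 1.5 times, with SDs from 0.036 to 0.13, and all 20 stayed in the lower decile. Adh5, formaldehyde dehydrogenase, ranged from 1331 to 1427. Cdk13, a kinase of transcription elongation, ranged from 2681 to 2930, and Supt6, a histone chaperone that travels with RNA polymerase II, from 2240 to 2476. Cpsf7 of the cleavage factor, the splicing regulator Sfswap and Taf10 of the general factor TFIID were also among the 20. Hsf1, the activator of heat shock genes, was also among them (576 to 644) although its target Hspa1a spanned 66.4-fold.

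Few genes used as references were that steady. Of 25 common reference genes, 0 were in the upper and 4 in the lower decile, with a median percentile of 42.0. The elongation factor gene Eef1a1 ranged from 155518 to 186476 (SD 0.10). Gapdh, a glycolytic enzyme gene often used for normalization, ranged from 3111 in replicate 4 to 8934 in replicate 6 (SD 0.50), and Actb from 214535 to 411925 (SD 0.29). Ribosomal protein genes covered the whole scale: 12 of 72 (16.7%) were in the lower decile and 5 (6.94%) in the upper. Rpl4 had an SD of 0.13 and Rpl23a of 1.12, with 350 to 1906 counts. Processed pseudogenes of these families can take part of the reads, so the values of Rpl23a and Rps16 (692 to 3211) are uncertain.

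Variable genes tended to be those that separate normal marrow fractions. Whole and lineage-negative marrow were at least 4-fold apart without overlap for 11.1% of all members, for 380 of the 989 genes (38.4%) in the upper decile and for 22 (2.22%) in the lower decile. Of the 380, 304 were higher in whole marrow, against 491 of the 1102 such genes among all members. The median log2 difference of lineage-negative over whole marrow across all members was 0.84, so these directions depend on the scaling of the table. Of the AML upper decile, 41.1% were also in the upper decile of variance among the 4 lineage-negative libraries and 21.2% among the 4 whole marrow libraries, where 10% of members lie by definition. The median SD was 0.27 in AML, 0.25 in lineage-negative marrow and 0.46 in whole marrow.

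Variable genes also lay next to each other more often than the ranking's own share. A neighbouring member in the upper decile was found for 37.6% of the upper-decile genes and for 18.2% of all members. The 225 neighbouring pairs had a median r of 0.69 across the 7 libraries, against −0.01 over all pairs in the upper decile. There were 15 runs of at least 4 neighbours, and in 11 of them the median r was under 0.5. The other 4 were the predicted genes of chromosome 9, with 0.98, and the 3 runs named next. On chromosome 17, from 34457877 to 34807478, H2-Ob, H2-Ab1, H2-Aa, H2-Eb1, H2-Eb2 and Notch4 formed a run with a median r of 0.91. Ifi206, Ifi213, Ifi209, Ifi207 and Ifi204 formed another on chromosome 1, with 0.89, and the 6 genes from Ifit2 to Ifit1 another on chromosome 19, with 0.76. Among the 11, the run of 9 genes on chromosome 6 from Gimap4 to Gpnmb had a median r of 0.13, and the lowest was −0.06. Reads shared by near-identical copies can add to the correlation of such neighbours.

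The 28 listed gene pairs were chosen with earlier results of these data known, so their p-values are no independent support for a relation. Of the 28, 25 had both genes among the members. Of these, 12 had an adjusted p under 0.05 by the exact two-sided permutation test of Pearson's r over 5040 pairings, with Benjamini-Hochberg adjustment over the 25, and 10 by Spearman's rho. The smallest p this design allows is 0.000198. Of the 12, 11 kept r of at least 0.7 when the 2 libraries farthest from the median of the first gene were left out. Spearman's rho was 0.96 for Mpo and Elane and for S100a8 and S100a9, 0.93 for Mki67 and Top2a, for Cd74 and Ciita, for Ifit3 and Irf7, for Cd3e and Lck and for Cpa3 and Gata2, and 0.89 for Cd74 and H2-Ab1 and for Fos and Dusp1. It was 0.79 for Cd79a and Cd79b (adjusted p = 0.109, exact permutation test), whose Pearson r was 0.92 (adjusted p = 0.0114). Without replicate 3 the count of pairs fell from 12 to 7, and the B cell and class II pairs were among those lost. Without replicate 6 it was 11. Each p-value is the share of pairings of these 7 libraries with a correlation at least as strong. Nothing says that the marrows were sampled separately in every respect, so the p-values are not extended beyond these libraries.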

How the data were processed

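Per the labels' protocols, TRIzol RNA went into TruSeq Stranded Total RNA libraries. The submitters' processing notes name STAR, Partek, DESeq2 and mm10; versions, annotation and counting strand are not given in the sources used here. The deposited values have the unit signal: read counts divided by a size factor per library, called normalized counts. Between 81.9% and 86.8% of low values per AML library were whole multiples of 1 read (tolerance 0.02), so reads were not recovered and no count model was fitted. Of the members, 9875 occur in GENCODE M21 for GRCm38, 217 with the same start, so gene positions are as in the table.

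Values were taken as log2 with a pseudocount of 1. Variance, principal components, average-linkage clusters and exact permutation tests used Python 3.11.15, numpy 2.4.6 and scipy 1.17.1; the ranking was tested on simulated data. The text names the 20 genes at each end of the ranking (skipping 11 predicted genes at the variable end and 0 at the other), 5 leading genes per cluster, the most variable and highest members of each list, and the listed pairs; genes beyond this rule were chosen after their values were seen. An item within the rule is not reported here. Members, lists and pairs were chosen with earlier results of these data known. Size factors moved no library by more than 0.10 on the log2 scale under TMM. Floors of 3 reads cover counting error only.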

Additional observations from a re-analysis of the deposited data

Results flagged for a closer look

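Among 7 libraries, the gap between the highest or lowest value and its nearest neighbour was divided by the whole range, on the log2 scale for genes and lists, and compared with Dixon's 95% critical value for 7 values. Of 134 named genes, 19 exceeded it. Chance gives about 1 in 20 such calls, and genes of 1 cluster share their profile, so these are not 19 separate events. Many of the named genes were also chosen for high variance over these same libraries. A library standing apart raises that variance, so an excess over 1 in 20 is built in and nothing is concluded from it. Over all 9886 members the share was 8.12%, and the library standing apart was replicate 3 for 259 and replicate 6 for 251 of 803 genes.

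Replicate 3 stood apart for 9 of the 19. It was high for the class II genes Cd74 (ratio 0.66), Ciita (0.606) and H2-Ab1 (0.584) and for the dendritic cell gene Xcr1 (0.671). It was low for the interferon-stimulated genes Oas1g (0.747), Oasl2 (0.735) and Ifit3b (0.645) and for the stromal genes Lepr (0.672) and Igfbp5 (0.6).

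Replicate 6 stood apart for 8. It was high for Peg3 (0.656) and low for Cx3cr1 (0.733), Csf1r (0.73), Upk1b (0.709), Cd163 (0.641), Cd209a (0.626), Ngfr (0.613) and Hrh1 (0.598). Fosb was low in replicate 1 (0.609), and Nup35, a nuclear pore gene with 58.3 normalized counts in replicate 4 and 151 to 236 elsewhere, was low there (0.68).

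Of the summed lists, class II and dendritic genes were high in replicate 3 (0.611), proliferation genes low in replicate 3 (0.637) and reference genes high in replicate 1 (0.571). Of the library measures, estimated depth was high in replicate 4 (0.627) and the mean of olfactory and vomeronasal receptor genes high in replicate 6 (0.745).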

How the results depend on the processing

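No paired analysis was possible because 1 group of 7 libraries was described and no groups were compared. Of 98 values of the summary counts under other settings, 88 stayed within 1.5 times the reported value. Those that did not came mostly from the level minimum: with a mean of at least 500, 107 members had an SD of at least 1, and 425 of the upper and 655 of the lower decile were shared with the reported ranking; with no minimum these were 3392 members and 169 of the upper decile, and 70 rather than 168 list members were in the upper decile. Fewer or more genes ranked is the construction of these settings. Ranking by median absolute deviation kept 401 of the 989 genes of the lower decile; the cause was not tested. Under TMM the upper decile kept 939 and the lower 664. Clustering the 500 most variable genes gave 11 clusters in place of 6, and with Spearman's rho 39.1% of the gene pairs that shared a cluster still did. In settings chosen after seeing the data, an SD of at least 1 was reached by 119 members without replicates 3 and 6, 247 without replicates 5 and 6 and 303 without the 8 repeat-bearing predicted genes. Leaving out 1 library at a time gave 220 to 348 such members, 37.4% to 41.4% of variance on the first component, and 7 to 13 correlated pairs. Of uncalled pairs, C1qa and Vcam1 ranged from −0.53 to 0.61 (r = −0.53 without replicate 6), Kit and Cd34 from −0.063 to 0.73 (r = −0.063 without replicate 5) and Pdcd1 and Flt3 from −0.73 to 0.31 (r = 0.31 without replicate 6), each changing sign. Pairs that gained a call were Hoxa7 and Hoxa9 without replicate 6 (r = 0.97), Camp and Ltf without replicate 4 (r = 0.93) and Fos and Egr1 without replicate 5 (r = 0.90). Called pairs kept their direction in all settings; Cpa3 and Gata2 lost the call in 5, Ifit3 and Oasl2 in 4 and Fos and Dusp1 in 2, and Cd74 with H2-Ab1, Cd74 with Ciita and Cd79a with Cd79b lost it without replicate 3 alone, each by leaving out 1 library. With 6 libraries the test has fewer pairings, so a lost call need not be a weaker relation.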
